A study of Drosophila melanogaster with 38 samples.

Results

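The subunits of the proteasome were followed on 36 arrays of female Canton-S flies, a standard wild-type strain of Drosophila melanogaster. Members were all genes whose platform symbol starts with Prosalpha, Prosbeta, Rpn or Rpt and then a digit, each read at its probe set with the highest mean and kept where that mean reached 6 in the log2 scale. Of 40 genes with such a symbol, 26 were kept, out of 11982 genes named in the table. Prosalpha2 to Prosalpha7 and Prosbeta2 to Prosbeta7 gave 12 genes of the core particle. Rpn1, Rpn2, Rpn3, Rpn5, Rpn6, Rpn7, Rpn8, Rpn11, Rpn12, Rpn13, Rpt2, Rpt3, Rpt4 and Rpt5 gave 14 genes of the regulatory particle. Of other subunits of the complex, Sem1 was read beside them and the rest were not analysed here.

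The flies were kept at 25 °C at 25 males and 25 females per vial. The CF cohort ate control food (150 g/L sucrose and 150 g/L yeast), the RF cohort ate restricted food (50 g/L of each), and the SF cohort was moved from control to restricted food on day 40. Head and thorax RNA, pooled from at least 75 females per array, was measured on 1 array per cohort at 12 times from 2 to 72 h after the switch, with no replicate array at a time. The CF and RF cohorts also had 1 array each at 0 h. These entered no main test, and 1 alternative fit added them as a further pair.

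The proteasome degrades proteins tagged with ubiquitin. Its core particle is a barrel of stacked rings, in which the alpha subunits form the gates and some of the beta subunits cut the substrate inside. The regulatory particle caps the barrel: its Rpt subunits are ATPases that unfold the substrate and thread it inward, and its Rpn subunits bind, position and strip the ubiquitin chain. These roles were worked out mainly in yeast and human proteasomes. Subunit genes are often transcribed in concert, in Drosophila under the long product of cnc (CncC) with its partner maf-S, and protein turnover in aged muscle and nervous tissue depends on the complex.

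All 26 member genes gave strong scores, with means over the 36 arrays from 10.1 for Rpn1 to 12.2 for Prosbeta5. The 14 genes left out were paralogs such as Prosalpha4T1, Prosbeta5R1, Rpn12R and Rpt4R. Their means ran from 3.47 to 5.17 (Prosbeta2R1), so no gene lay near the minimum, and 1 further probe set named for several genes was not used. The probe sets of Rpn6, Rpn13, Prosbeta5 and Prosbeta7 carry the array's mark for probes shared by several transcripts, and signal from a near copy in these cannot be separated.

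The RNA held the tissues named in the labels: the neuronal gene elav had a mean of 8.72 and the photoreceptor gene Arr2 13.6, and flight muscle genes were detected. Midgut genes were detected too, with means from 9.74 (Jon25Bii) to 14.6 (alphaTry). The RNA also held ovarian transcripts that head and thorax should lack. The mean of 11 eggshell genes, which follicle cells make late in oogenesis, ran from 10.2 (CF, 18 h) to 13.1 (SF, 8 h) between arrays, and among germline genes osk had a mean of 12.0, grk 9.17 and bam 7.38, while vas (5.25) was below the minimum. Values of this eggshell mean stand beside the results they move with, and its part in those results was not tested. In bulk RNA, fewer cells of a type and less RNA per cell cannot be told apart.

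Subunit transcripts varied little between arrays, and they did so in concert. The SD of a member over the 36 arrays ran from 0.070 (Rpn8, a lid subunit paired with Rpn11) to 0.17 (Prosalpha6), with a median of 0.12. The median over all 9420 probe sets tested was 0.20, and 84.4% of them had a larger SD than the median member. These probe sets were not matched to the members for level. Across the 36 arrays, each of the 325 pairs of members had a correlation above 0, with a median of 0.705 against 0.0055 for all pairs of probe sets tested. The points share their arrays and the array scaling, so these correlations are a description.

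Core genes were more alike than regulatory genes. The median correlation was 0.843 over the 66 pairs within the core, 0.653 over the 91 pairs within the regulatory particle and 0.679 over the 168 pairs across both. With cohort and eggshell terms removed, the medians became 0.769, 0.508 and 0.534, against 0.016 for all pairs tested. Prosbeta4 (median correlation with the other members 0.824), Prosalpha2 (0.817) and the deubiquitinase Rpn11 (0.809) followed the group most closely. Rpn3, a scaffold subunit of the lid, followed it least, with 0.394, and 0.106 once the cohort and eggshell terms were removed.

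**Figure D1:**
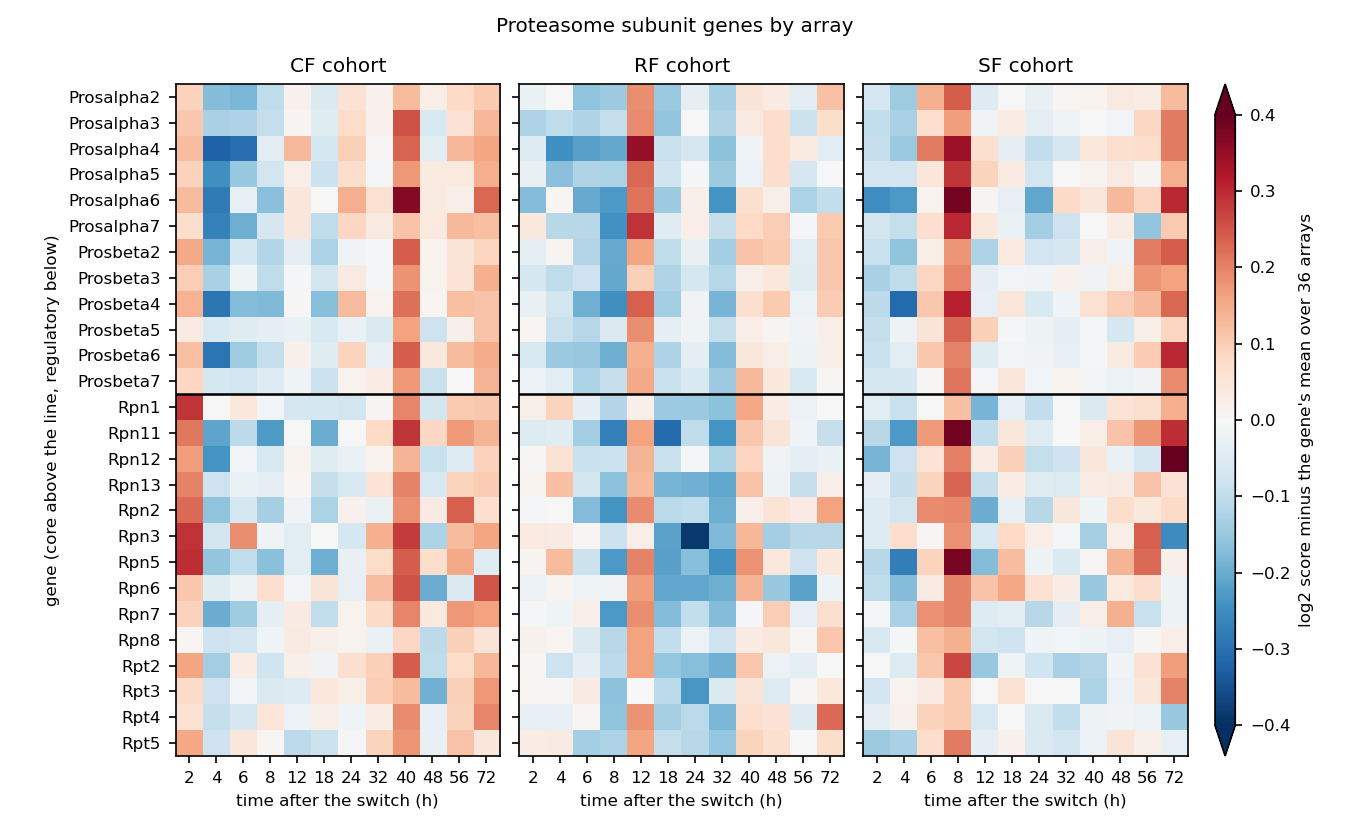
Each cell gives the score of 1 member gene on 1 array as a log2 deviation from that gene's mean over the 36 arrays, with the 26 genes as rows and the collection time in hours (2 to 72 h) as columns for the CF, RF and SF cohorts. Whole columns share a colour, as in SF at 8 h with 26 of 26 genes above their mean and RF at 32 h with 0 of 26.

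All 26 genes were above their own mean on 3 arrays, CF at 2 h, CF at 40 h and SF at 8 h. None was above it on 3 arrays of the RF cohort, at 8, 18 and 32 h. In SF at 8 h the median deviation was 0.24 for the core and 0.20 for the regulatory particle, and this array also had the highest eggshell mean, 13.1. The core and regulatory medians in RF at 8 h were -0.20 and -0.14, with an eggshell mean of 10.2, close to the lowest. In CF at 40 h both medians were 0.20 at an eggshell mean of 12.0. In CF at 4 h they were -0.22 and -0.090, at an eggshell mean of 10.6.

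The core minus regulatory gap, the difference between the medians of the deviations, varied in size and sign between arrays. In CF at 4 h it was -0.12, larger in size than the regulatory median of -0.090. Averaged by period, the gap was -0.057 ± 0.057 in CF at 2 to 18 h and 0.012 ± 0.062 at 24 to 72 h (SD, n = 6 arrays for each value here). In RF it was -0.035 ± 0.057 and 0.022 ± 0.052. SF had -0.0025 ± 0.040 and 0.035 ± 0.060. In each cohort the later mean was the higher, and the ranges of the 2 periods overlapped. The widest gap was 0.16, in SF at 72 h, where the core stood at 0.20 and the regulatory particle at 0.043.

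**Figure D2:**
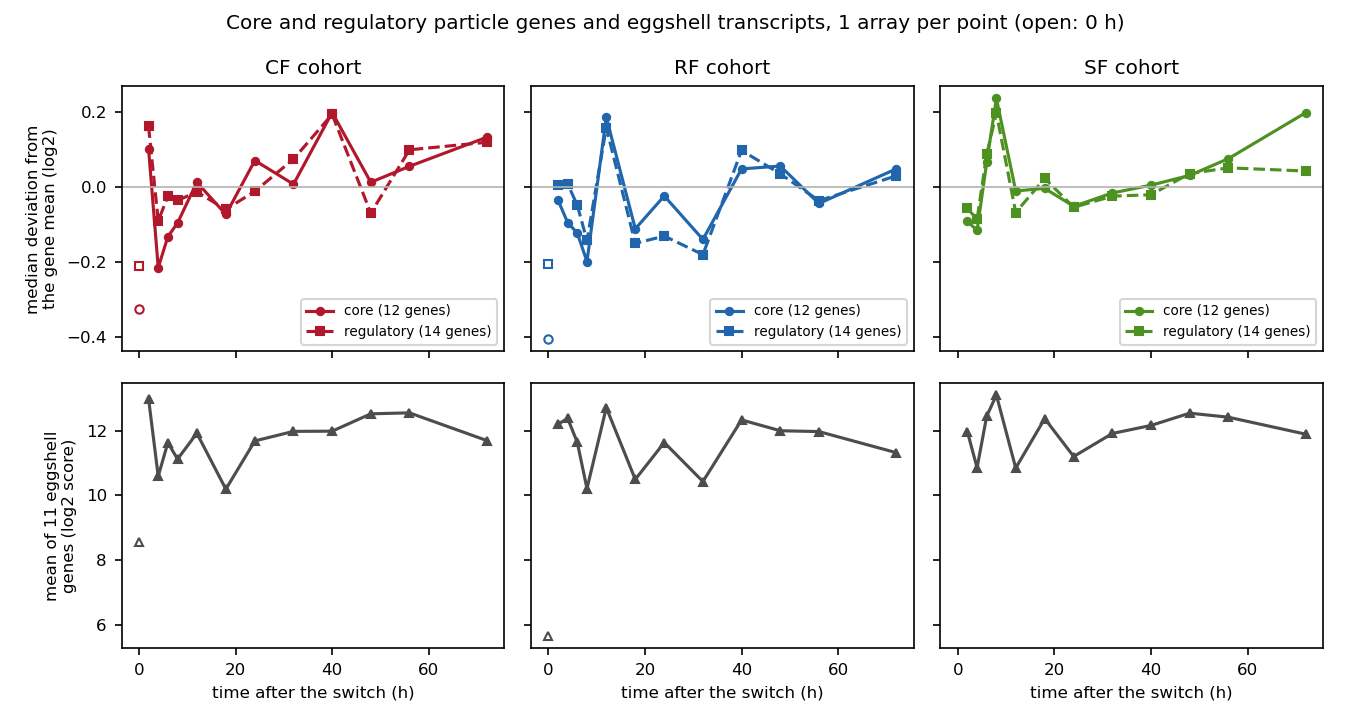
Median log2 deviation of the 12 core genes and of the 14 regulatory genes from their own means, with the mean log2 score of the 11 eggshell genes, against collection time in hours for each cohort, with open symbols for the 0 h arrays. Core and regulatory lines run close together, the core below the regulatory particle at 4 h in CF (-0.22 and -0.090) and above it at 72 h in SF (0.20 and 0.043).

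The first comparison asked how long-term restriction differed from control feeding. Most subunits had slightly lower scores in RF than in CF, and none passed the test over the 12 times. Of the 26 members, 25 had a difference below 0, against 53.9% of all probe sets tested, and the count was 24 once each array was centred on its median and 23 with the eggshell mean in the fit. The median member difference was -0.051 (core -0.035, regulatory -0.058), a ratio of 0.965. The median over all probe sets tested was -0.0091.

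By limma on the 12 pairs of arrays collected together, with p values adjusted over all probe sets and the 3 comparisons, 0 of 26 members were called at 0.05, where 7.42% of all probe sets were. At an unadjusted p under 0.05, 2 members passed, Rpn3 and Rpn6, both lower. Of all probe sets, 23% passed in either direction and 9.83% with a lower score. The 95% intervals of the 26 differences ran from -0.25 to 0.088, or ratios of 0.842 to 1.06. No label says that vials or pools were separate from time to time, so the p values measure the spread between these pairs.

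Rpn3 had the largest difference. Its score ran from 10.49 through a median of 10.68 to 10.91 in CF, from 10.23 through 10.52 to 10.75 in RF, and from 10.36 through 10.63 to 10.85 in SF. The ranges overlapped, with RF lowest. RF minus CF was -0.15 (SE 0.044, adjusted p = 0.0826 by limma), a ratio of 0.899, and was below 0 at 10 of 12 times, the exceptions being 4 and 12 h. Without 4 h or without 12 h, the times that went the other way, the adjusted p was 0.0332 or 0.0423 by limma, which passes the threshold. Without any other 1 time it ran from 0.0937 to 0.178. With the 0 h pair added it was 0.147, at a difference of -0.13.

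Prosalpha6, a core gate subunit, came next. Its lowest, median and highest scores were 11.07, 11.39 and 11.72 in CF and 11.11, 11.24 and 11.57 in RF. The difference was -0.12 (SE 0.056, adjusted p = 0.339 by limma) and below 0 at 10 of 12 times. For Rpn6, which ties the lid to the core and has been linked to proteasome assembly in worm and human cells, the scores ran from 11.86 through 12.08 to 12.32 in CF and from 11.85 through 12.04 to 12.23 in RF, a difference of -0.10 (SE 0.046, adjusted p = 0.314 by limma).

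The catalytic subunits among the members, Prosbeta5 and Prosbeta2, were nearly level between these cohorts. Prosbeta1, which is also catalytic, was not among the members and was not read. Prosbeta5, which carries the chymotrypsin-like activity, ran from 12.12 through 12.17 to 12.36 in CF and from 12.09 through 12.19 to 12.39 in RF. RF minus CF was -0.0079 (95% interval -0.079 to 0.064). Prosbeta2, which carries the trypsin-like activity, differed by -0.014 (95% interval -0.10 to 0.072). Leaving out 40 h turned the Prosbeta5 difference to 0.0035, and leaving out 2 h turned that of Prosbeta2 to 0.0022.

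**Figure D3:**
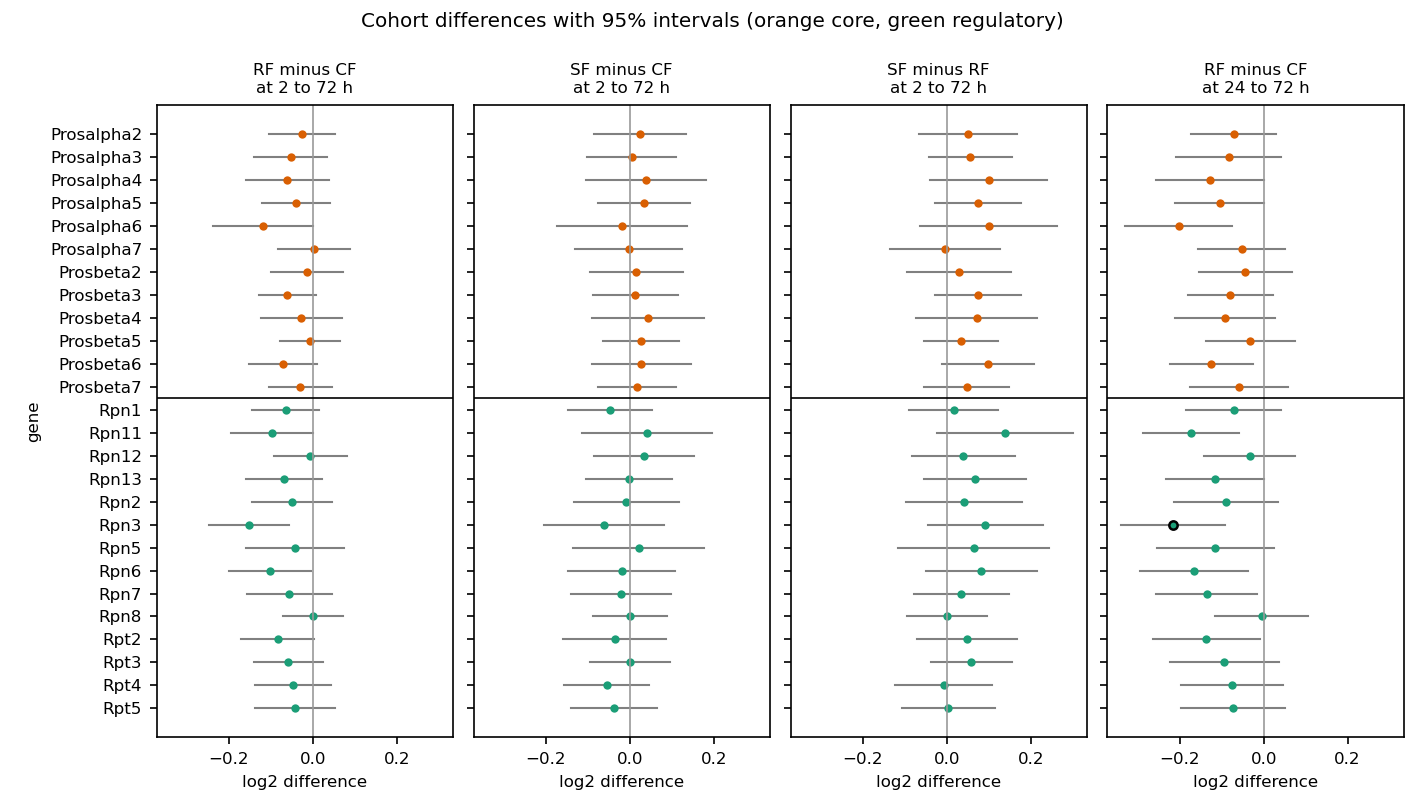
Log2 difference between cohorts for each of the 26 member genes (points) with its 95% interval from limma (lines), for RF minus CF, SF minus CF and SF minus RF over 12 time pairs and for RF minus CF over the 6 pairs at 24 to 72 h, with a black ring on a gene called at 0.05. Rpn3 at 24 to 72 h, at -0.22, is the single gene with a ring.

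The members shifted together from time to time by more than their mean difference. The median RF minus CF difference was -0.16 at 2 h, 0.11 at 4 h and 0.17 at 12 h, when 26 of 26 members were above 0. At 32 h it was -0.17 and at 40 h -0.13, with 26 of 26 below 0 at each, and at 48 h it was 0.067 with 21 above. The eggshell mean differed by -0.79, 1.79 and 0.79 at 2, 4 and 12 h, in the same direction as the members. At 32 h it differed by -1.55, again in the same direction. At 40 and 48 h it differed by 0.35 and -0.52, in the opposite direction.

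The median difference was wider in the later period. The direct test of this change, given further below, called 0 of 26 members (0% of all probe sets). At 24 to 72 h, 26 of 26 members were below 0 in RF minus CF, against 55.2% of all probe sets tested, 25 of 26 after centring and 26 with the eggshell mean in the fit. The median was -0.091 (core -0.082, regulatory -0.10). Of the members, 1 was called, against 18.3% of all probe sets tested, so the share called was below the background. At an unadjusted p under 0.05, 7 members passed, all of them lower. Of all probe sets, 44.1% passed in either direction and 23.1% with a lower score. The eggshell genes had a median difference of -0.52 in these hours, and 1 of 11 was called lower, Vm32E (-1.19). Markers of other tissues differed as well. Of 4 flight muscle genes, 3 were called higher in RF (list median 0.68), while the lowest difference in that list was -0.53 and not called. Also called higher were 1 of 2 photoreceptor genes (median 0.26) and 1 of 5 midgut genes (median 0.087). Of the neuronal genes, 0 of 3 were called in either direction (median -0.0055). Of all probe sets, 8.22% were called lower and 10.1% higher. The part of these tissues in the members' values was not tested.

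The member called was Rpn3, lower in RF than in CF by 0.22 in log2 score (SE of 0.054, limma's adjusted p = 0.0447), a ratio of 0.861. The 6 differences were -0.32 at 24 h, -0.32 at 32 h, -0.15 at 40 h, -0.011 at 48 h, -0.24 at 56 h and -0.27 at 72 h. All 6 were below 0, and the one at 48 h was close to it. The call was lost without 24, 32, 40, 56 or 72 h (adjusted p 0.069 to 0.122), after centring (0.0656), with array weights (0.0555) and with the eggshell mean in the fit (0.241). The difference itself stayed between -0.23 and -0.19 in these alternatives, and in the fit with the eggshell mean the calls over the whole table went from 1723 to 187.

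Other members of this period stood just outside the threshold. The adjusted p was 0.0579 for Prosalpha6 (-0.20, SE 0.056) and 0.0658 for Rpn11 (-0.17, SE 0.050), which cleaves the ubiquitin chain from the substrate. Without 48 h Prosalpha6 passed as well (0.0449). Rpn8, the partner of Rpn11 in the lid, had a difference of -0.0046 (95% interval -0.12 to 0.11). Prosbeta5 had -0.032 (95% interval -0.14 to 0.074).

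**Figure D4:**
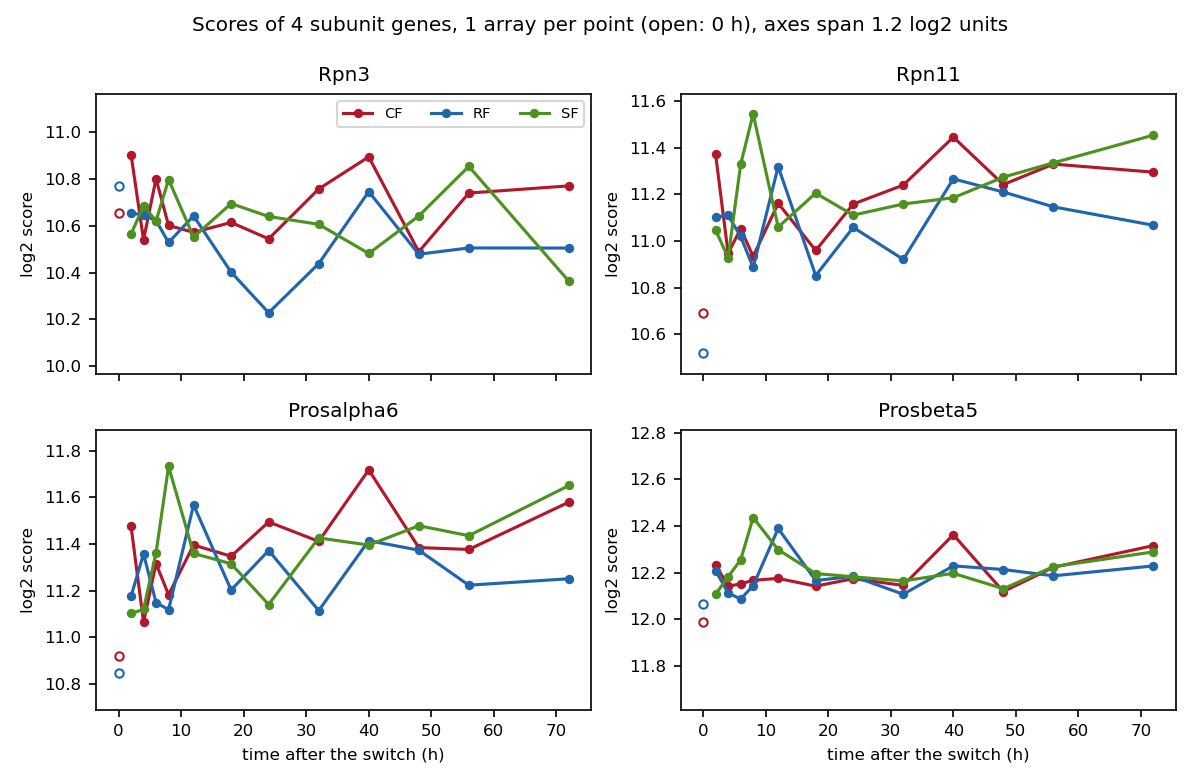
Log2 expression score of Rpn3, Rpn11, Prosalpha6 and Prosbeta5 against collection time in hours, 1 point per array, for the CF, RF and SF cohorts. Open symbols mark the 0 h arrays. The RF score of Rpn3 lies below that of CF at 10 of 12 times from 2 to 72 h. Prosbeta5 stays between 12.09 and 12.44 in every cohort at those times, and at 0 h it has 11.99 in CF and 12.07 in RF.

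In the first 18 h RF and CF were close. The median RF minus CF difference was -0.010 and 15 of 26 members were below 0 (44.1% of all probe sets). The core median was 0.010, which turned to -0.0053 after centring and to -0.012 with the eggshell mean in the fit. With 1 time left out, the median of the members ran from -0.042 without 12 h to 0.020 without 2 h, and was also above 0 without 8 or 18 h. In limma's test 0 members were called (0.18% of all probe sets), and 0 passed an unadjusted p under 0.05 (9.86%).

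The second comparison asked what the switch to restricted food did against staying on control food. SF and CF had nearly the same subunit scores over 72 h. There were 13 members above 0 and 13 below (53.8% of all probe sets were above), with a median of 0.0020, which was -0.0022 after centring and -0.016 with the eggshell mean in the fit. The 2 particles differed in sign: 10 of 12 core genes were above 0 (median 0.022) and 11 of 14 regulatory genes below (median -0.014). After centring 9 core genes were above 0, and with the eggshell mean in the fit 5 were, with a core median of -0.0022. Each sign also turned with 1 time left out: the core median was -0.0041 without 8 h, and the regulatory median was 0.0090 without 40 h and also above 0 without 2 h.

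By limma, 0 of 26 members were called in SF minus CF (1.8% of all probe sets), and 0 passed an unadjusted p under 0.05 (9.12%). The 95% intervals ran from -0.20 to 0.20, or ratios of 0.868 to 1.15. The largest differences belonged to 3 regulatory genes. Rpn3 had -0.061 (SE 0.067), the ATPase Rpt4 -0.055 (SE 0.047) and the base scaffold Rpn1 -0.048 (SE 0.047), with adjusted p of 0.692, 0.609 and 0.652 by limma.

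The early and late hours of the switch gave medians of opposite sign, each of which rested largely on 1 time. At 2 to 18 h the SF minus CF median was 0.050 with 24 of 26 members above 0 (56.2% of all probe sets), but 15 were above after centring and 14 with the eggshell mean in the fit, and the regulatory median of 0.029 turned to -0.0087 after centring. No member passed limma's test, with 0 called and 0% of all probe sets, and 0 members passed an unadjusted p under 0.05 (5.17%). This early median rested on the array of SF at 8 h, where 26 of 26 members were above CF (median 0.28) and the eggshell mean was higher by 1.98. Without 8 h it was 0.0070, and the regulatory median was -0.0070. At 2 h, by contrast, 26 of 26 members were below CF (median -0.21, eggshell difference -1.02).

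At 24 to 72 h the SF minus CF median was -0.038 and 25 of 26 members were below 0 (57.8% of all probe sets), 17 of 26 after centring and 25 with the eggshell mean in the fit. Members called by limma numbered 0 (4.31% of all probe sets), and 0 passed an unadjusted p under 0.05 (16.3%). The lowest were Rpt4 at -0.14 (95% interval -0.28 to 0.0041) and Prosalpha7, a core gate subunit, at -0.13 (95% interval -0.26 to 0.0052). At 40 h all 26 members were below CF, with a median of -0.20 and an eggshell difference of 0.18. Without 40 h the median of this period was -0.0013 and that of the core 0.00028.

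SF and RF ate the same food after the switch and differed in their history. SF had slightly higher subunit scores: 23 of 26 members were above 0 (52.7% of all probe sets), 22 after centring and 17 with the eggshell mean in the fit. The median was 0.054 (core 0.064, regulatory 0.045), which was 0.014 with the eggshell mean in the fit, where the regulatory median was -0.00067. Without 8 h the median was 0.022 and the regulatory median 0.016. By limma 0 members were called (1.95% of all probe sets), and 0 passed an unadjusted p under 0.05 (12.4%). These differences share arrays with those of the other comparisons, each cohort entering 2 of the 3.

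Rpn11 had the largest SF minus RF difference, 0.14 (SE 0.075, adjusted p = 0.432 by limma), from scores of 10.93 to 11.54 in SF (median 11.20) and 10.85 to 11.32 in RF (median 11.09). Prosalpha4 and Prosalpha6, both of the gate ring, had 0.10 each (SE 0.065 and 0.076). Prosalpha4 ran from 11.07 through 11.27 to 11.57 in SF and from 10.98 through 11.16 to 11.57 in RF. The ranges overlapped for each gene, with the highest SF score of Rpn11 above its highest RF score. Without 8 h the differences were 0.092 for Rpn11, 0.059 for Prosalpha4 and 0.053 for Prosalpha6.

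By period, the SF minus RF median was 0.061 at 2 to 18 h with 25 of 26 above 0 (55.9% of all probe sets), and 0.0023 without 8 h, where the SF array stood 0.38 above RF and the eggshell mean 2.89 above it. At 24 to 72 h it was 0.047 with 22 above (48.1%), 0.030 without 32 h or 72 h, and 0.0091 with 16 above once the eggshell mean was in the fit. Neither period gave a call among the members by limma, 0 in each (0.0106% and 5.19% of all probe sets), and 0 passed an unadjusted p under 0.05 (3.58% and 22.8%).

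The gap between the particles was also read in the paired differences. Core minus regulatory was 0.028 ± 0.042 in RF minus CF (SD over 12 times) and above 0 at 10 of 12 times. In SF minus CF it was 0.027 ± 0.063, above 0 at 8 of 12, and in SF minus RF 0.028 ± 0.070, above 0 at 8 of 12. Each SD is the spread between times, and the mean gap was not tested.

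Whether a cohort difference itself moved between the periods was tested directly. The late minus early change of RF minus CF was below 0 in 26 of 26 members (54.1% of all probe sets), with a median of -0.092, and that of SF minus CF in 25 of 26 (57.4%), with a median of -0.098. By limma 0 members were called in these and in SF minus RF (17 below 0, 57.5% of all probe sets), where 0% of all probe sets were called in each. At an unadjusted p under 0.05 there were 0, 1 and 0 members, against 21.7%, 14.2% and 2.05% of all probe sets. The 1 member was Prosalpha7, with -0.25 in SF minus CF (adjusted p = 0.371 by limma).

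No member passed the test of variation with time that the 3 cohorts shared. In the F test of the 12 times 0 of 26 members were called (3.42% of all probe sets), and 0 passed an unadjusted p under 0.05 (14.7%). The largest F belonged to core genes, 1.80 for Prosalpha4 (adjusted p = 0.472 by limma) and 1.73 for Prosbeta6, a structural beta subunit (0.497). The median F was 1.39 for the core and 0.852 for the regulatory particle, beside 1.21 for all probe sets tested.

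The later 6 times were slightly higher in level than the first 6. All 12 core genes had a late minus early level above 0 (median 0.071), as had 12 of 14 regulatory genes (median 0.018), against 51.6% of all probe sets. By limma 0 members were called (0.0212% of all probe sets). At an unadjusted p under 0.05, 2 passed, both higher (28.9% of all probe sets in either direction, 11% higher). They were Prosbeta4, a structural core subunit, with 0.12 (SE 0.051, adjusted p = 0.149 by limma), and Rpn11 with 0.11 (SE 0.050, adjusted p = 0.153). The eggshell genes had a median of 0.25 in the same contrast, and 0 of 11 were called.

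Subunit scores rose with the eggshell mean across the 36 arrays. With the cohort in the fit, 23 of 26 members had a slope above 0 that passed the test, 11 of 12 core genes and 12 of 14 regulatory genes, where 68.9% of all probe sets were called in either direction and 37.2% with a slope above 0. The median slope was 0.091 per log2 unit of the eggshell mean. The steepest were the lid genes Rpn5 (0.19, SE 0.020) and Rpn11 (0.18, SE 0.022), followed by Prosbeta4 (0.15, SE 0.024). Their adjusted p were 1.19e-09, 2.08e-08 and 2.94e-06 by limma. This fit had no term for collection time, so its p values do not allow for what arrays of the same time share.

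Slopes of 3 members did not pass: Prosbeta5 (0.038, adjusted p = 0.0706), Rpn6 (0.046, adjusted p = 0.143) and the ATPase Rpt3 (0.033, adjusted p = 0.165), by limma. Called members numbered 17 once each array was centred on its median and 18 without the RF cohort. All 4 flight muscle genes and all 3 neuronal genes tested had slopes below 0 that passed, the opposite sign to the subunits, where 31.6% of all probe sets did.

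**Figure D5:**
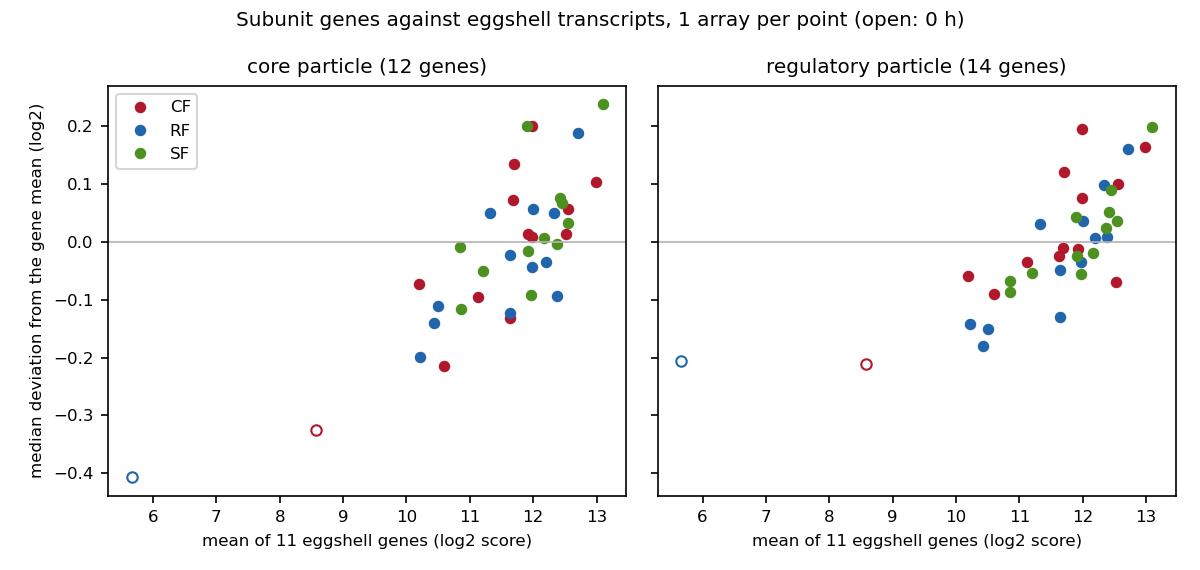
Median log2 deviation of the 12 core genes and of the 14 regulatory genes against the mean log2 score of 11 eggshell genes, 1 point per array and particle, for 38 arrays including those of CF and RF at 0 h. The arrays at 0 h lie lowest on both axes, with eggshell means of 8.57 and 5.66, and the array of SF at 8 h lies highest, at 13.1.

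Genes that act with the proteasome gave calls in both directions in the RF and CF cohorts. Of 13 genes listed for assembly, activators and partners, 11 were tested, and in RF minus CF 1 was called higher (4.77% of all probe sets) and 0 lower (2.65%). The gene was Npl4, a cofactor that hands ubiquitinated proteins to the segregase TER94. It rose by 0.30 over the 12 pairs (SE 0.070, adjusted p = 0.0268 by limma) and by 0.47 at 24 to 72 h (SE 0.045, adjusted p = 0.0024). The first call was lost after centring (0.0529) and without any 1 of 18, 24, 32, 40, 48, 56 or 72 h (0.0604 to 0.0662), with differences of 0.28 to 0.31. The second call held under every alternative run (0.00127 to 0.0217). Its eggshell slope was -0.20.

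Both deubiquitinases that bind the regulatory particle, Uch-L5 and Usp14, were lower in RF than in CF at 24 to 72 h, by 0.26 and 0.22. Each had an adjusted p of 0.049963 by limma, just inside the threshold. Both calls were lost in 8 of 10 alternatives, and with the eggshell mean in the fit the differences were -0.16 and -0.18. The genes had eggshell slopes of 0.29 and 0.19. TER94 had -0.15 (adjusted p = 0.0763) in the same hours, and Rad23, a shuttle for ubiquitinated proteins, -0.15 (0.114).

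Among 3 regulators of subunit transcription, maf-S was higher in RF, with an RF minus CF difference of 0.14 (adjusted p = 0.0472 by limma). At 24 to 72 h its difference was 0.19 (0.0372). The first call was lost after centring (0.122) and without any 1 of 10 of the 12 times (0.0517 to 0.111), and the second with the eggshell mean in the fit (0.208) and without 24, 32, 40, 48 or 56 h (0.0507 to 0.117). The differences stayed between 0.13 and 0.15 in the first case and between 0.18 and 0.21 in the second. The transcription factor cnc had 0.043 and Keap1, which restrains its product, -0.078, with adjusted p of 0.681 and 0.559. All 3 had eggshell slopes below 0 that passed the test (31.6% of all probe sets), opposite in sign to the subunits.

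Neither ubiquitin genes nor the COP9 signalosome, a complex built like the lid, gave a call in the 3 cohort comparisons. For the 4 ubiquitin genes tested the largest RF minus CF differences were -0.058 (Ubi-p5E) and -0.045 (Ubi-p63E). Of their eggshell slopes 0 of 4 passed the test, against 68.9% of all probe sets. For 8 COP9 genes the median RF minus CF difference was -0.0048, with CSN5 at -0.054 and CSN7 at 0.039 as the largest. An eggshell slope above 0 that passed was found for 7 of 8, against 37.2% of all probe sets. Sem1, a small lid subunit under a symbol outside the rule, had 0.017 in RF minus CF and an eggshell slope of 0.099 (adjusted p = 0.0020 by limma).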

How the data were processed

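The authors hybridised labelled RNA to Affymetrix Drosophila 2.0 arrays and deposited log2 expression scores made by RMA with quantile normalization, which sets all arrays to 1 distribution. Of 18952 probe sets, 183 controls were left out and 9420 of the other 18769 had a mean of at least 6 over 36 arrays and were tested. Gene symbols came from the platform annotation: 13647 probe sets had 1 symbol, 402 several and 4720 none, and members were taken from those with 1 symbol.

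Cohorts were compared with limma 3.58.1 (R 4.3.3) on differences between arrays of 1 collection time, following the study's paired comparison by time, with Benjamini-Hochberg adjustment over all probe sets and the 3 comparisons together at 0.05. The F test of time, the late against early contrasts (24 to 72 h against 2 to 18 h) and the eggshell slope (each probe set on the array mean of 11 eggshell genes, with the cohort as a term) were adjusted over all probe sets, the contrasts over the 3 comparisons as well. Tests were two-sided, and intervals are 95%. The comparisons over 12 pairs, the F test, the late against early contrasts and the eggshell slope were checked on simulated data. The noise there was independent between probe sets and arrays, unlike the shared shifts seen here. The fits of 6 pairs within a period were not checked in this way. Precision is limited by how many arrays there are, as arrays count no molecules.

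Named genes were the 3 members with the largest absolute difference in each comparison, and the catalytic beta subunits among the members. Members called in any test and the 2 with the largest F were named as well. From the lists came the genes called or, where none was, the 2 with the largest difference. Others were named after their values were seen. Members and lists were chosen with earlier results of these data known. Same-time arrays deviated together in part for RF and CF, where deviations from cohort means had a median correlation of 0.511 (-0.0923 to 0.686 between times). For SF and CF the median was 0.147 (-0.597 to 0.714) and for SF and RF 0.0709 (-0.681 to 0.661). Some pairs with SF thus deviated in opposite directions. The pairing rests on the labelled collection time. Alternatives covered normalization, filter, pairing, weights, adjustment, the eggshell covariate, the added 0 h pair and each time left out.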

Additional observations from a re-analysis of the deposited data

How the results depend on the processing

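The members called stayed at 0 in SF minus CF, SF minus RF, the late minus early contrasts and the late minus early level under every alternative run, and medians of RF minus CF stayed below 0 for the members, the core and the regulatory particle, with the member median between -0.072 and -0.038. The count called in RF minus CF was 0, became 3 with array weights (Rpn3, Prosalpha6 and Rpn11) and 1 with each comparison adjusted on its own, and ran from 0 to 1 with 1 time left out. At 24 to 72 h it was 1, became 0 once arrays were centred on their medians, 0 with array weights and 0 with the eggshell mean as a covariate, 3 with each comparison adjusted on its own, and ran from 0 to 2 with 1 time left out. The Prosbeta2 difference in RF minus CF reversed to 0.0022 without 2 h and that of Prosbeta5 to 0.0035 without 40 h, in ranges with 1 time left out of -0.033 to 0.0022 and -0.028 to 0.0035. Without the pairing by time (no replicate block), RF minus CF of Rpn3 had an adjusted p of 0.226, 0 members were called, and the whole table gave 338 calls in RF minus CF and 108 in SF minus CF, beside 699 and 170 with the pairing. Over all alternatives these whole-table counts ran from 338 to 1632 and from 91 to 447, those of SF minus RF from 117 to 790 (184 as reported), those of RF minus CF at 24 to 72 h from 187 to 2776 (1723) and those of the late minus early level from 0 to 1662 (2). The methods' t-test gave Rpn3 in RF minus CF an adjusted p of 0.0559 by Storey's method and 0.0816 by Benjamini-Hochberg. Members with a called eggshell slope numbered 17 to 26. The cause of these changes was not tested. Array weights were estimated gene by gene because the default did not converge; they, the weights and the separate adjustment at 24 to 72 h, and the late minus early contrasts with 1 time left out were chosen after seeing the data. Using every probe set of a member gave no further value, since each had 1 tested probe set. Having 1 array per cohort and time limits the precision.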

Other observations

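The arrays of CF and RF at 0 h, 1 per cohort, had lower subunit scores than the 36 later arrays. On each, 24 of 26 members were below their own mean at 2 to 72 h, against 51.8% and 54.3% of all probe sets tested. In CF at 0 h, 21 members lay below their whole range over the 36 arrays, 12 of 12 core genes among them (24.9% of all probe sets), and in RF at 0 h 18 did, with 11 core genes (31.1%). The 18 lay below on both arrays. Rpn1, Rpn3, Rpn6, Rpt3 and Rpt4 lay within their range on both. Rpn11, for example, had 10.69 in CF and 10.52 in RF, below the 10.85 to 11.54 of the later arrays, whereas Rpn3 had 10.65 and 10.77, within 10.23 to 10.91. The eggshell mean of these arrays was 8.57 and 5.66, below its lowest value of 10.2 at the later times, and its part in these scores was not tested. RF minus CF at 0 h had a median of -0.063 over the members, with 19 of 26 below 0 (55% of all probe sets).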
